A study of Homo sapiens with 6 samples.

Results

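The genes described here are 47 genes that make, sense, move and modify cholesterol and fatty acids, measured in the Ewing sarcoma cell line A673. They were chosen by name from the textbook pathways, all 47 were found once each among the 62700 rows of the count table, and all 47 passed the filter on low counts that left 28485 genes. The series set 3 libraries of parental A673 cells (EWS-FLI1 wildtype) against 3 libraries of A673 cells labelled EWS-FLI1 knockout, to ask how this fusion oncoprotein affects RNA. All cells were grown in DMEM with fetal bovine serum, which itself supplies lipoprotein cholesterol and fatty acids, and polyadenylated RNA was sequenced. The labels leave unsaid whether the knockout cells are a single clone or a mixed population, how the gene was disrupted, and whether replicates were separate cultures. The spread behind the p-values below is therefore that of these libraries and may be technical, and a difference between clones and the loss of the fusion cannot be told apart.

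Cholesterol is built from acetyl-CoA through mevalonate and squalene by a chain of enzymes of the cytosol, peroxisome and endoplasmic reticulum, and fatty acids are built from the same acetyl-CoA by acetyl-CoA carboxylase and fatty acid synthase, then lengthened by elongases and given double bonds by desaturases. SREBP transcription factors, encoded by SREBF1 and SREBF2, switch many of these genes on together when the endoplasmic reticulum is poor in sterol: SCAP escorts them to the Golgi for cleavage, and the INSIG proteins hold them back. When sterol is plentiful, oxysterols activate the liver X receptors, which raise the exporters ABCA1 and ABCG1 and the ubiquitin ligase MYLIP. SREBPs often act beside NF-Y, a factor that binds CCAAT boxes close to the start of transcription.

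Promoters of 5 members are shown because all 5 carry the CCAAT letters that NF-Y is known to bind, because SREBF2 alone of them also carries the sterol element searched for, and because their genes went different ways. Each is the RefSeq sequence (GRCh38.p14) from 250 bases before to 50 bases after the annotated start, 5′ to 3′ on the gene's strand, with capitals for CCAAT on either strand (read as ATTGG on the other strand) and for TCACNCCAC, a form of the sterol regulatory element.
INSIG1 promoter, chr7:155297628-155297927, plus strand: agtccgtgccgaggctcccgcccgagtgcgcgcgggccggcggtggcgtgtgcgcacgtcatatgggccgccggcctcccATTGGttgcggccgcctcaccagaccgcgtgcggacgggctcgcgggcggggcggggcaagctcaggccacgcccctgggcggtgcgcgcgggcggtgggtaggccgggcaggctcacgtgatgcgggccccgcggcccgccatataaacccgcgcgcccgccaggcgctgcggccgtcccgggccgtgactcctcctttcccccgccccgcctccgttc
LSS promoter, chr21:46228725-46229024, minus strand: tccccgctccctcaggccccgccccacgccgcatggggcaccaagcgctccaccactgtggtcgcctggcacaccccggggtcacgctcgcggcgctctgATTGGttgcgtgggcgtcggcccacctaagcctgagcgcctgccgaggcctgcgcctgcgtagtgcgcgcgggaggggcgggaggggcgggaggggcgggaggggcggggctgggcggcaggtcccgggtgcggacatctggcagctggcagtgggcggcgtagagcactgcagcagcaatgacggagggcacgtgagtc
MSMO1 promoter, chr4:165327419-165327718, plus strand: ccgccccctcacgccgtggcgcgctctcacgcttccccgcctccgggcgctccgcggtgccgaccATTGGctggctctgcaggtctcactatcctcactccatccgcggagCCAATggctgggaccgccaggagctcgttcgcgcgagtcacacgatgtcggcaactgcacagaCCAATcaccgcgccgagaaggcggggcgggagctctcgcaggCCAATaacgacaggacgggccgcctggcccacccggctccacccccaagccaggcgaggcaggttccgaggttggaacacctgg
SREBF2 promoter, chr22:41832855-41833154, plus strand: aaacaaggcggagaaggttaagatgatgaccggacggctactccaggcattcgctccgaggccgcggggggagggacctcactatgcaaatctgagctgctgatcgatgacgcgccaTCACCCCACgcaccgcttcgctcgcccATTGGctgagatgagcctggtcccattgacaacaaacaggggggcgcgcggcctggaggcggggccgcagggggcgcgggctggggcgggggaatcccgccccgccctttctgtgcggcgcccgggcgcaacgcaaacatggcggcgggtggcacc
FDPS promoter, chr1:155308616-155308915, plus strand: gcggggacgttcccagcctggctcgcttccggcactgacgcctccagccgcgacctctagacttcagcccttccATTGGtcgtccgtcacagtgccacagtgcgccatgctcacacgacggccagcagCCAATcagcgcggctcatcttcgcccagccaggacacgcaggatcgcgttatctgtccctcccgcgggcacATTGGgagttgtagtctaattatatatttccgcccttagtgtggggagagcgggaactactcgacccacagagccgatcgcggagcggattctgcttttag
RefSeq promoters were matched by symbol for 41 of the 47 members (58 promoters, since 11 members had several). ABCG1, ACAT2, FASN, FDFT1, LPL and SQLE were not matched. CCAAT occurred on either strand in at least 1 promoter of 29 of these 41 members (70.7%), against 39.7% of the 27305 genes in the promoter table. Among the 15 matched enzymes of cholesterol synthesis it occurred in 13. It was present in all 7 matched enzymes that were higher in the knockout libraries and in 5 of 6 that were lower. It was also in 1 of 2 that passed in neither direction. SQLE, which rose too, is not among these enzymes. MSMO1 carried 4 such boxes, FDPS 3 and LSS 1, so the letters were present in enzymes that rose and in one that fell. TCACNCCAC stood in 1 promoter each of SREBF2 and ACSL1 and in 1.39% of all genes. The E-box CACGTG, searched on both strands, stood in 7 of the 41 members and 8.77% of all genes, and GGAAGGAA, a pair of joined ETS core motifs, in 1 member (SC5D) and 4.50% of all genes. A match is a string of letters and not a measured binding site, and genes with several promoters have more chances of a match.

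In the comparison of knockout with parental libraries, 24 of the 47 members rose, 16 fell and 7 did not pass at an edgeR quasi-likelihood adjusted p under 0.05. Levels are CPM (counts scaled to a common library size, with TMM factors), a scaling that assumes most genes keep their share, and changes are log2 fold changes of knockout over parental. The share called, 85.1%, has to be read against a comparison in which 73.8% of all tested genes were called, 36.3% higher and 37.5% lower. Among genes of at least 1 CPM in 3 libraries the share was 88.6% over all genes and 89.1% over the 46 members that reach this level, so the number of called members does not set them apart. Against a log2 fold change of 1, 10 members rose and 4 fell, 29.8% of them beside 33.6% of all tested genes (18.1% higher, 15.5% lower). The 2 groups of libraries did not overlap in 40 members, 85.1%, beside 76.7% of all genes. Counts by role below are to be read against these shares over all genes. The median log2 fold change of the members was 0.22 and that of all tested genes -0.056, while the median size of change was 0.64 and 0.82.

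**Figure D1:**
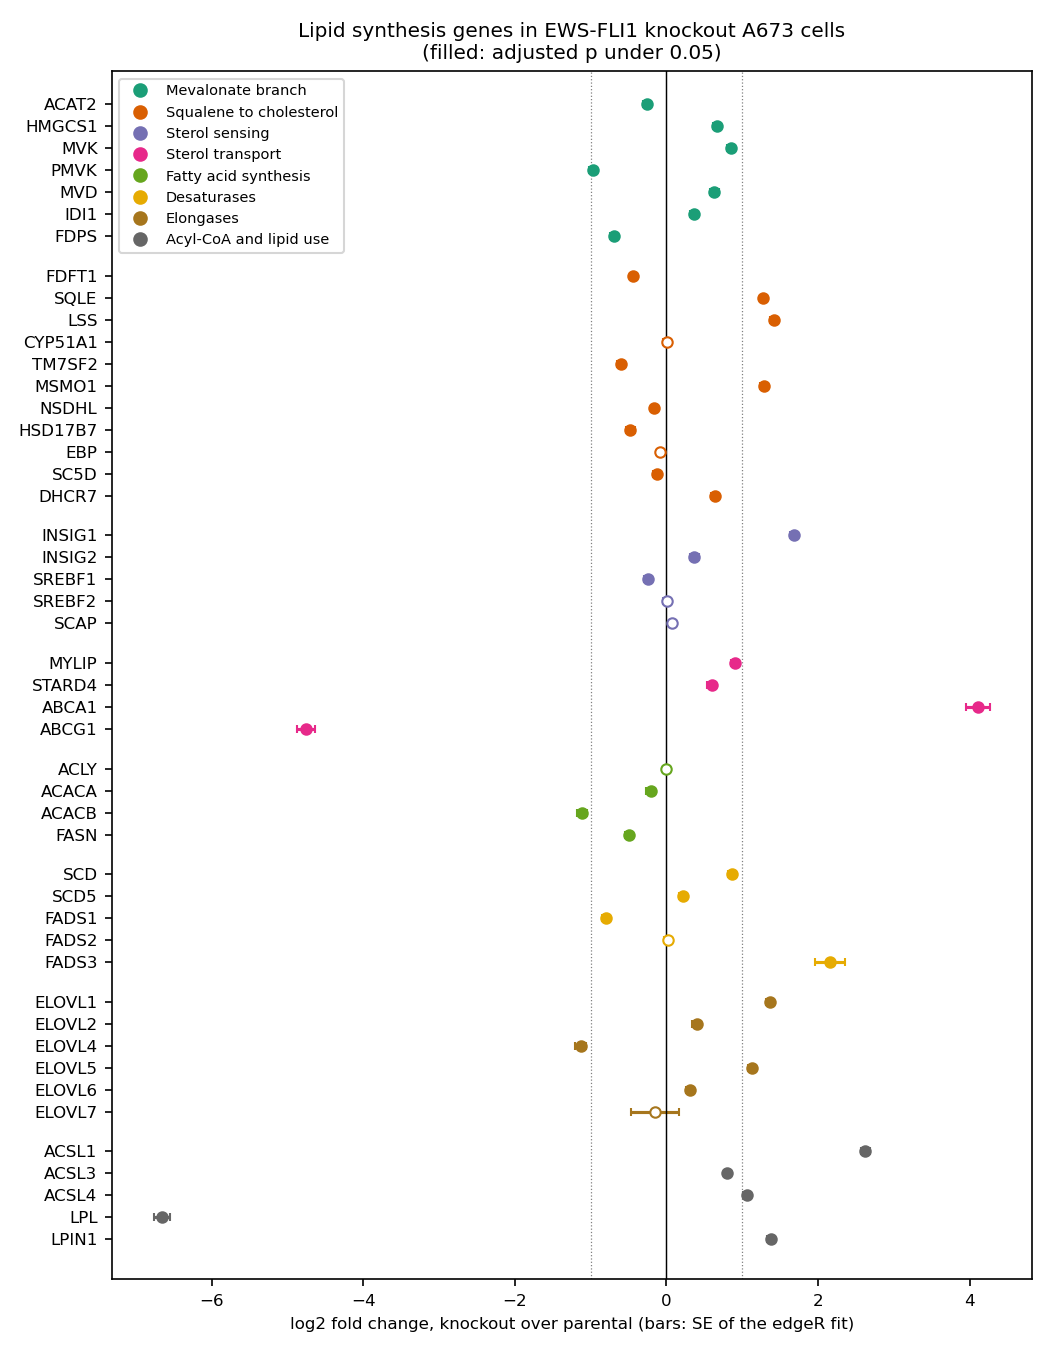
Log2 fold change of knockout over parental (x axis) for each of the 47 members (y axis), coloured by role, with bars for the SE of the edgeR fit, filled points for an adjusted p under 0.05 and dotted lines at a log2 fold change of 1 in either direction. Most points lie between the dotted lines, with LPL at -6.65, ABCG1 at -4.75 and ABCA1 at 4.11 far outside.

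Libraries held between 301605666 and 342624492 estimated counts. The median deviation of the members from the genotype mean lay between -0.055 (knockout replicate 3) and 0.031 (knockout replicate 1) on the log2(CPM + 1) scale. Over all tested genes it lay between -0.010 and 0.0088. Without knockout replicate 3 the median log2 fold change of the members was 0.28, against 0.22 with all libraries. All 7 Ewing sarcoma markers listed to check the labels fell, from a summed level of 742 to 763 CPM in the parental to 25.3 to 25.5 CPM in the knockout libraries. This bears on the labels, since a count per gene cannot separate the fusion from the normal transcripts of its partners. The lists were chosen with earlier results of these data known, so it is not an independent check. Markers of other cell types were also summed. Adipocyte markers (2 of 6 tested rose, 2 fell) summed to 5.84 to 6.37 CPM in the parental and 2.06 to 2.39 CPM in the knockout libraries, with ADIPOQ at most 0.085 CPM and CIDEC at most 0.015 CPM. The fall of this sum came from CEBPA (mean 4.90 to 0.464 CPM). FABP4 and PPARG, at means of 0.147 and 1.32 CPM in the knockout libraries, rose. Hepatocyte markers (3 of 4 rose) summed to 0.202 to 0.376 and 0.548 to 1.92 CPM, the last in knockout replicate 3, where ALB held 0.686 CPM. Leukocyte markers (2 of 3 rose) summed to 0.278 to 0.362 and 1.71 to 2.05 CPM, with CD3E at 0 in some libraries, and steroidogenic markers (1 of 3 rose, 1 fell) to 2.83 to 3.09 and 0.340 to 0.434 CPM. Most of the leukocyte rise was that of PTPRC (mean 0.127 to 1.49 CPM), and the steroidogenic fall was that of STAR (mean 2.88 to 0.219 CPM). Epithelial markers (3 of 5 rose, 1 fell) summed to 7.55 to 8.41 and 248 to 270.5 CPM, which KRT8 and KRT18 made up almost entirely while EPCAM was at most 0.080 CPM in knockout libraries. In bulk RNA, a change in the number of cells of a type and a change in RNA per cell cannot be told apart, and the part these markers play in the results below was not tested.

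With TMM factors, enzymes of the mevalonate branch, which turns acetyl-CoA into farnesyl diphosphate, changed in both directions by less than 2-fold. Of 7 genes, 4 rose and 3 fell. HMGCS1, the synthase that makes HMG-CoA, held 77.9, 86.2 and 81.05 CPM in the parental and 132, 135 and 124 CPM in the knockout libraries. All 3 knockout libraries lay above all 3 parental ones, a log2 fold change of 0.67 ± 0.052 (SE, adjusted p = 1.02e-10, edgeR). The kinase MVK rose by 0.85 (SE 0.053), from 19.4 ± 0.951 to 34.9 ± 0.816 CPM (SD, n = 3 libraries in each genotype, as in all such values below). The decarboxylase MVD rose by 0.63 (SE 0.057) and the isomerase IDI1 by 0.36 (SE 0.053). Against these stood PMVK, the kinase that acts between MVK and MVD, at -0.97 (SE 0.056). PMVK held 32.9, 30.7 and 30.2 CPM in the parental and 16.6, 16.3 and 15.1 CPM in the knockout libraries. FDPS, which joins the isoprenoid units, changed by -0.69 (SE 0.048), from 248 ± 5.12 to 154 ± 5.20 CPM, and the thiolase ACAT2 by -0.26 (SE 0.050). The largest rise and the largest fall of the branch were thus those of consecutive kinases. PMVK passed the test against a 2-fold change as lower with upper quartile factors (-1.17) and with library totals only (-1.39). FDPS did so with library totals only (-1.11). Exons of MVK overlap those of MMAB on the other strand, and those of ACAT2 overlap TCP1 and SOD2, each at a higher count than the member, so without stated strand information reads in these stretches may not be told apart.

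From squalene to cholesterol, 3 of 11 enzymes passed the test against a 2-fold change, all higher, or 27.3% beside 33.6% of all tested genes. The median size of change was 0.47 beside 0.67 in the mevalonate branch. With library totals only, none of these 3 passed that test, and with upper quartile factors MSMO1 did not. SQLE (chr8:124998505-125022283), the squalene epoxidase and an oxygen-requiring control point of the pathway, held 73.2, 77.9 and 74.6 CPM in the parental and 188, 187 and 174 CPM in the knockout libraries. LSS (chr21:46188446-46228774), the cyclase that closes the sterol rings on the epoxide made by SQLE, held 194, 176 and 180.4 CPM in the parental and 493, 495 and 488 CPM in the knockout libraries. In both genes the knockout libraries lay far above the parental ones with little spread, a log2 fold change of 1.28 ± 0.050 (SE, adjusted p = 4.92e-16, edgeR) for SQLE and 1.42 ± 0.050 (SE, adjusted p = 6.61e-17, edgeR) for LSS, or 2.43-fold and 2.68-fold. MSMO1 (chr4:165327669-165343164), the oxidase that starts removal of the methyl groups of the sterol ring, held 44.99, 51.98 and 48.95 CPM in the parental and 122, 120.4 and 113 CPM in the knockout libraries. The groups of MSMO1 did not overlap either, and its log2 fold change was 1.29 ± 0.056 (SE, adjusted p = 3.2e-15, edgeR). DHCR7, the last reductase on the route through 7-dehydrocholesterol, rose by 0.64 (SE 0.050), from 124 ± 6.26 to 193 ± 5.56 CPM.

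Other steps of the same route were lower or did not pass. FDFT1, the squalene synthase just before SQLE, held 294, 289.6 and 286 CPM in the parental and 217, 221 and 205 CPM in the knockout libraries. Every knockout library was below every parental one, at a log2 fold change of -0.44 ± 0.048 (SE, adjusted p = 3.57e-08, edgeR). TM7SF2, a sterol reductase, changed by -0.60 (SE 0.053), HSD17B7, a sterol ketoreductase, by -0.47 (SE 0.057), and NSDHL, a decarboxylating dehydrogenase, by -0.16 (SE 0.050). HSD17B7 and NSDHL work in the same demethylation complex as MSMO1, whose transcript rose. SC5D, a desaturase of the sterol ring, changed by -0.13 (SE 0.053) with overlapping groups, at an adjusted p of 0.0321 that became 0.118 with the DESeq2 Wald test. It also missed the threshold with DESeq2 size factors (RLE factors computed in edgeR). The same held when any of 5 libraries was left out (all but parental replicate 1). CYP51A1, the lanosterol demethylase, was at 0.0051 (SE 0.051), and EBP, a sterol isomerase, at -0.081 (SE 0.047), and neither passed (edgeR adjusted p = 0.934 and 0.127). The groups of EBP did not overlap, and it passed as lower with library totals only (-0.50), upper quartile factors (-0.28), no filter on low counts (-0.11) and the stricter filter (-0.12). CYP51A1 passed as lower with library totals only (-0.42) and upper quartile factors (-0.20). Over the 18 enzymes of both branches 8 rose, 8 fell and 2 did not pass (median -0.038). The pathway therefore did not move as a block: SQLE with LSS, and MSMO1, rose between neighbours that fell or did not pass. HSD17B7 has a copy, HSD17B7P2, at 7.95% of its mean count, so its reads are uncertain to that extent. An exon of TM7SF2 overlaps VPS51 on the same strand over at most 16 bases, where reads may not be told apart.

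**Figure D2:**
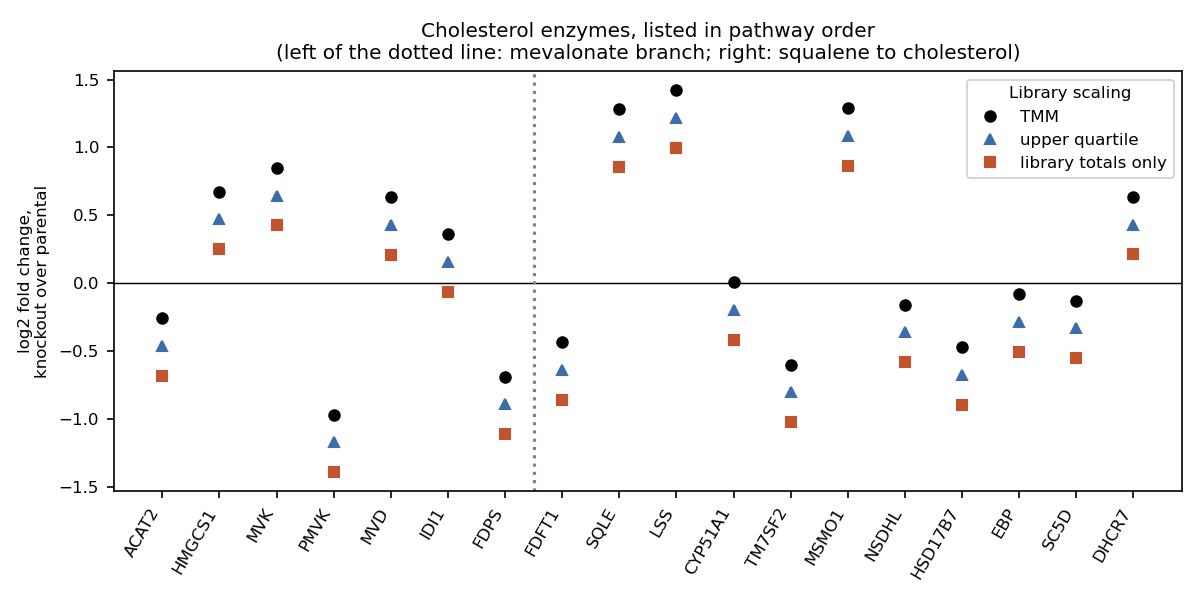
Log2 fold change of knockout over parental (y axis) for the 18 cholesterol enzymes listed along the pathway (x axis), under TMM scaling (circles), upper quartile scaling (triangles) and library totals only (squares). SQLE, LSS and MSMO1 stay the highest under each of the 3 scalings (SQLE 0.86 with library totals), while IDI1 crosses 0 with library totals (-0.062).

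Among the genes of sterol sensing, INSIG1 rose and the SREBP genes changed little. INSIG1 (chr7:155297878-155310235), an SREBP target that feeds back on SREBP by holding SCAP in the endoplasmic reticulum, held 42.7, 42.5 and 43.5 CPM in the parental and 141, 140.4 and 132 CPM in the knockout libraries. The 3 knockout libraries lay above every parental library, a log2 fold change of 1.69 ± 0.049 (SE, adjusted p = 1.94e-18, edgeR), or 3.22-fold. Its relative INSIG2 rose by 0.37 (SE 0.058). SREBF2 (chr22:41833105-41907305), whose protein mainly drives cholesterol genes, held 383, 352 and 364 CPM in the parental and 377, 371 and 355 CPM in the knockout libraries. The groups overlapped and the log2 fold change was 0.0043 ± 0.049 (SE, adjusted p = 0.942, edgeR). SREBF1 (chr17:17811334-17836986), whose protein products mainly drive fatty acid genes, held 253, 222 and 233 CPM in the parental and 194, 201 and 204 CPM in the knockout libraries. Knockout libraries lay just below parental ones, a log2 fold change of -0.24 ± 0.052 (SE, adjusted p = 0.000299, edgeR). SCAP, the escort, held 73.8, 66.1 and 68.1 CPM in the parental and 74.5, 73.7 and 71.5 CPM in the knockout libraries. These groups overlapped, at 0.079 ± 0.051 (SE, adjusted p = 0.167, edgeR), though without parental replicate 1 the value was 0.15 and passed (adjusted p = 0.00203). SREBF2 and SCAP depend on the scaling: with library totals only they were at -0.42 and -0.34 and with upper quartile factors at -0.20 and -0.12, each passing as lower. Transcript levels of SREBF1 and SREBF2 do not measure cleavage of their proteins, which was not assayed here. Exons of SREBF1 overlap RAI1 on the other strand.

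The transport genes held the widest spread of the members of sterol metabolism. ABCA1 (chr9:104781006-104928155), which exports cholesterol to lipid-poor apolipoproteins, held 1.65, 1.36 and 1.78 CPM in the parental and 32.5, 24.7 and 25.8 CPM in the knockout libraries. The highest parental library lay far below the lowest knockout library, a log2 fold change of 4.11 ± 0.16 (SE, adjusted p = 7.26e-07, edgeR), or 17.3-fold. ABCG1 (chr21:42199689-42297244), which exports cholesterol to lipoprotein particles, held 7.14, 6.66 and 6.41 CPM in the parental and 0.286, 0.208 and 0.254 CPM in the knockout libraries. It went the opposite way with groups as far apart, a log2 fold change of -4.75 ± 0.12 (SE, adjusted p = 1.09e-19, edgeR). Both exporters are known targets of the liver X receptors, whose 2 genes also parted: NR1H2 rose by 0.72 (SE 0.054) and NR1H3 changed by -1.27 (SE 0.060). These receptor genes belong to a fixed list and were singled out after their values were seen. MYLIP, the ligase that marks lipoprotein receptors for breakdown, rose by 0.91 (SE 0.053), from 13.99 ± 0.196 to 26.3 ± 1.10 CPM, and STARD4, a carrier of cholesterol between membranes, by 0.60 (SE 0.058). STARD4 overlaps its antisense gene STARD4-AS1, which held 26.6% of its mean count.

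**Figure D3:**
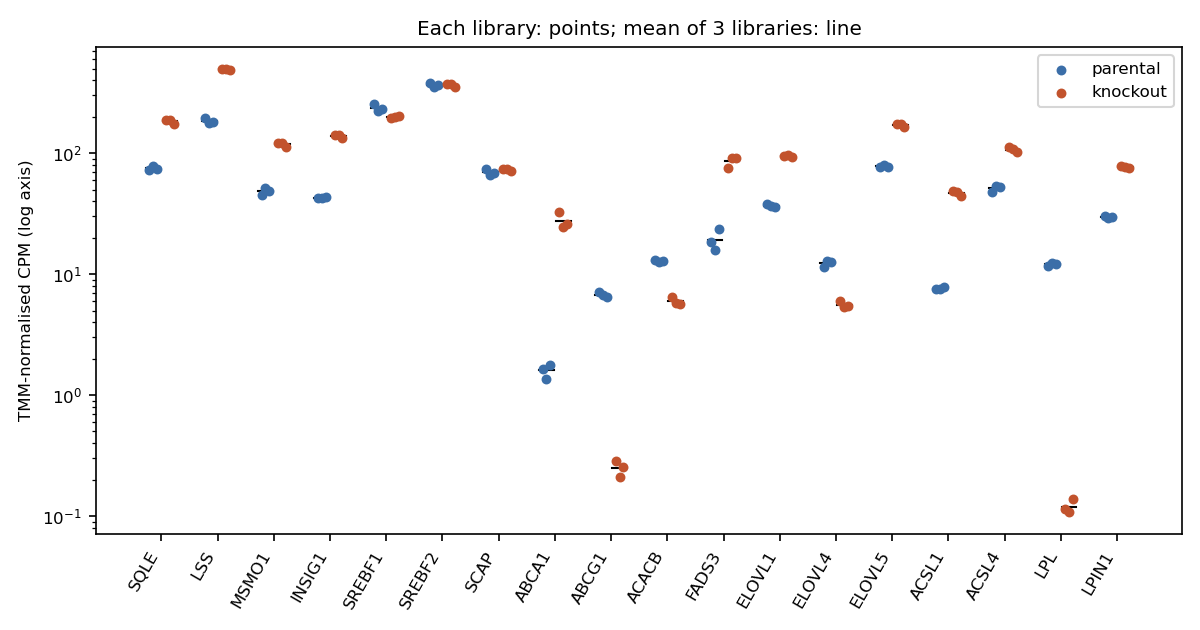
TMM-normalised CPM on a log axis (y axis) for the 18 members given library by library (x axis), with a point for each of 3 parental and 3 knockout libraries and a line at each mean. The points of a genotype lie close together, and parental and knockout points overlap in SREBF2 and SCAP.

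The 4 genes grouped under fatty acid synthesis, which include ACLY and the mitochondrial carboxylase ACACB, were lower or did not pass. Of these 4 genes, 3 fell, none rose and ACLY did not pass. FASN, the fatty acid synthase, held 963, 847 and 893 CPM in the parental and 662, 628 and 628 CPM in the knockout libraries. All knockout libraries were below all parental ones, a log2 fold change of -0.50 ± 0.052 (SE, adjusted p = 1.84e-08, edgeR). ACACB (chr12:109111189-109268226), the mitochondrial acetyl-CoA carboxylase whose product restrains fatty acid oxidation, held 12.99, 12.6 and 12.9 CPM in the parental and 6.41, 5.73 and 5.67 CPM in the knockout libraries. It had the largest change of the 4, -1.11 ± 0.064 (SE, adjusted p = 5.92e-13, edgeR), and passed the test against a 2-fold change as lower, though not with DESeq2 size factors. ACACA, the carboxylase that supplies FASN, held 90.05, 89.7 and 93.1 CPM in the parental and 88.6, 75.1 and 72.4 CPM in the knockout libraries. Knockout replicate 1 lay close to the parental libraries, and the log2 fold change of -0.21 ± 0.064 (SE, adjusted p = 0.00823, edgeR) was lost without parental replicate 1 (adjusted p = 0.0746), knockout replicate 2 (0.0607) or knockout replicate 3 (0.0759). ACLY, which frees acetyl-CoA from citrate, was at -0.00097 ± 0.048 (SE, adjusted p = 0.986, edgeR) and passed as lower with library totals only (-0.43) and upper quartile factors (-0.21).

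Desaturases, which place double bonds in fatty acyl chains, differed between close relatives. SCD, the main desaturase of saturated acyl chains, which makes oleate, held 827, 869 and 858 CPM in the parental and 1629.9, 1571 and 1459 CPM in the knockout libraries. The knockout libraries were all higher, a log2 fold change of 0.87 ± 0.051 (SE, adjusted p = 7.27e-13, edgeR). SCD5, the other human enzyme of that kind, rose by 0.22 (SE 0.053), but was at -0.20 with library totals only and passed there as lower. FADS1, which completes arachidonate and eicosapentaenoate, held 431, 445 and 452 CPM in the parental and 265, 258 and 242 CPM in the knockout libraries. It fell without overlap, a log2 fold change of -0.80 ± 0.049 (SE, adjusted p = 2.12e-12, edgeR). The neighbour of FADS1, FADS2, which starts the desaturation of linoleate and linolenate, held 695, 649 and 666 CPM in the parental and 693, 695 and 655 CPM in the knockout libraries. Those groups overlapped and the value was 0.023 ± 0.048 (SE, adjusted p = 0.674, edgeR), while library totals only gave -0.40 and upper quartile factors -0.18, both passing as lower. FADS3 (chr11:61873526-61892224), a desaturase of sphingoid bases in the same cluster on chromosome 11, held 18.4, 15.8 and 23.7 CPM in the parental and 75.02, 90.8 and 91.7 CPM in the knockout libraries. FADS3 libraries scattered more than those of SCD, FADS1 and FADS2, but the groups stayed apart, a log2 fold change of 2.15 ± 0.20 (SE, adjusted p = 0.000469, edgeR). FADS1 and FADS2 overlap head to head on opposite strands over at most 165 bases of exon, where their reads may be mixed.

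Of the 6 elongases, 4 rose, 1 fell and ELOVL7 did not pass. ELOVL1 (chr1:43363401-43368011), which lengthens saturated and monounsaturated very long chains for sphingolipids, held 38.1, 36.3 and 36.1 CPM in the parental and 95.5, 96.8 and 92.2 CPM in the knockout libraries. ELOVL5 (chr6:53267404-53348950), which lengthens polyunsaturated chains, held 76.8, 80.3 and 77.1 CPM in the parental and 173, 176 and 165 CPM in the knockout libraries. In both, every knockout library exceeded every parental one, with log2 fold changes of 1.36 ± 0.049 (SE, adjusted p = 9.75e-17, edgeR) and 1.13 ± 0.048 (SE, adjusted p = 2.52e-15, edgeR). ELOVL4 (chr6:79914814-79947553), known for the ultra-long chains of retina, brain and skin, held 11.3, 12.9 and 12.6 CPM in the parental and 5.99, 5.38 and 5.42 CPM in the knockout libraries. It was the elongase that fell, at -1.13 ± 0.068 (SE, adjusted p = 1.31e-12, edgeR), and these 3 genes also passed the test against a 2-fold change. ELOVL1 and ELOVL5 did not pass it with library totals only, nor ELOVL5 with upper quartile factors, nor ELOVL4 with DESeq2 size factors. ELOVL2, which lengthens polyunsaturated chains beyond ELOVL5, rose by 0.40 (SE 0.058), and ELOVL6, which turns palmitate into stearate, by 0.31 (SE 0.053). With library totals only, ELOVL2 was at -0.027 and did not pass, and ELOVL6 was at -0.12 and passed as lower. ELOVL7 held at most 0.163 CPM in any library, and its value of -0.15 (SE 0.31) leaves its direction unresolved.

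**Figure D4:**
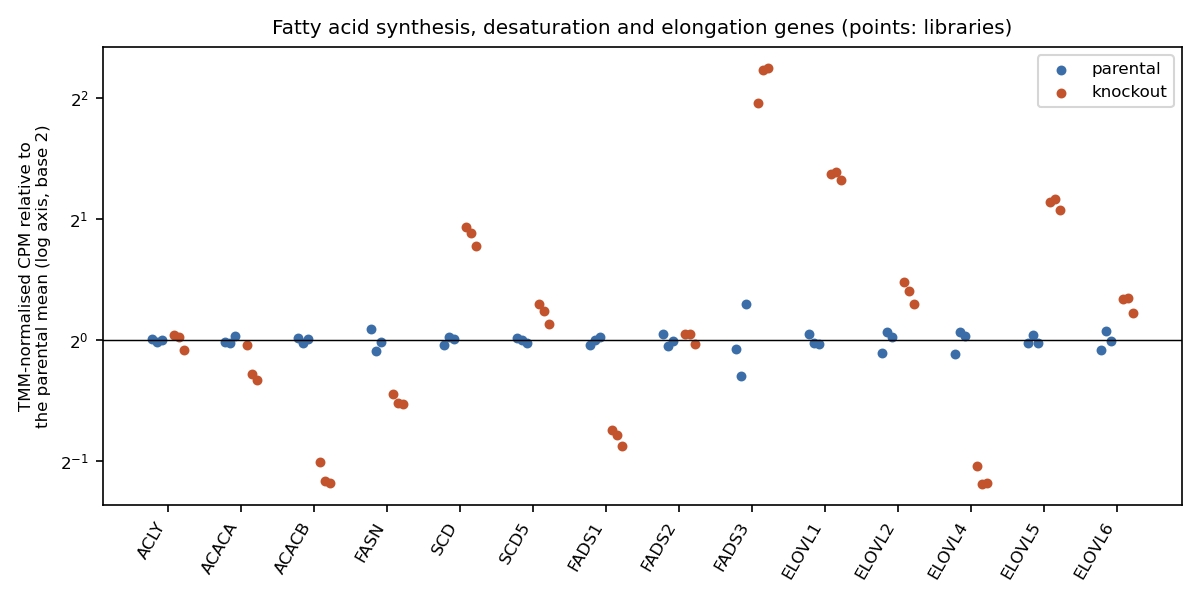
TMM-normalised CPM of each library divided by the parental mean of the same gene (y axis, log axis of base 2) for genes of fatty acid synthesis, desaturation and elongation (x axis), without ELOVL7, with a point for each of 3 parental and 3 knockout libraries. Knockout points of FASN, ACACB, FADS1 and ELOVL4 lie below 1, those of SCD, FADS3, ELOVL1 and ELOVL5 above it, and those of FADS2 and ACLY lie near it.

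The genes that activate fatty acids or act on stored and circulating lipid included the largest fall among the members. LPL (chr8:19939253-19967259), the lipase that frees fatty acids from circulating triglyceride, held 11.7, 12.5 and 12.2 CPM in the parental and 0.113, 0.108 and 0.138 CPM in the knockout libraries. The parental level was low but uniform and the knockout level close to nothing, a log2 fold change of -6.65 ± 0.11 (SE, adjusted p = 3.97e-23, edgeR). The knockout libraries kept 0.677% of the raw parental count of LPL, near the median of 0.617% kept by the 20 lowest among 3990 genes abundant in parental libraries (at least 20000 raw counts). The reads behind the fold change of LPL were thus at the share that the most reduced abundant genes also kept, while ABCG1 kept 2.54%. LPL, at a parental mean of 4676 raw counts, was not among those abundant genes. Whether that share is a floor was not tested. ACSL1 (chr4:184755595-184826594), a ligase that couples long-chain fatty acids to coenzyme A, held 7.48, 7.56 and 7.76 CPM in the parental and 48.6, 47.9 and 44.1 CPM in the knockout libraries. It rose 6.17-fold with groups wide apart, a log2 fold change of 2.63 ± 0.056 (SE, adjusted p = 6.39e-21, edgeR). ACSL4 (chrX:109641335-109733257), which prefers arachidonate and is known for a part in ferroptosis, held 47.4, 53.8 and 52.9 CPM in the parental and 112, 108 and 102 CPM in the knockout libraries. It rose by 1.06 ± 0.055 (SE, adjusted p = 9.16e-14, edgeR) but did not pass the test against a 2-fold change. ACSL3, a ligase of lipid droplets, rose by 0.80 (SE 0.050), so all 3 of these ligases were higher. LPIN1 (chr2:11677544-11827409), the phosphatidate phosphatase that makes diacylglycerol, held 30.2, 29.1 and 29.8 CPM in the parental and 78.2, 77.3 and 75.5 CPM in the knockout libraries. These groups did not overlap, and the log2 fold change was 1.37 ± 0.048 (SE, adjusted p = 5.55e-17, edgeR).

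Other genes of lipid metabolism were counted from lists. Of 33 further genes of sterol synthesis and transport 20 rose, 10 fell and 3 did not pass (median 0.62). CH25H, which makes an oxysterol signal, rose from 0.126 ± 0.0167 to 14.5 ± 0.487 CPM, a log2 fold change of 6.84 (SE 0.10). NPC2, which hands cholesterol out of lysosomes, rose by 2.10 (SE 0.050), and the lipoprotein receptor VLDLR by 2.08 (SE 0.059). Of 24 tested genes of acyl supply and elongation 10 rose and 12 fell, with a median of -0.063. MLXIPL, the glucose-responsive factor ChREBP that drives lipogenic genes, fell from 14.3 ± 0.970 to 0.261 ± 0.0533 CPM, a log2 fold change of -5.77 (SE 0.11), while its relative MLXIP rose by 1.29 (SE 0.050). HACD1, a dehydratase of the elongation cycle, rose by 2.65 (SE 0.076) and the fatty acid transporter SLC27A1 by 1.68 (SE 0.056).

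Of 27 tested genes of triglyceride and phospholipid assembly and breakdown 14 rose and 10 fell, with a median of 0.19. MGLL, the monoacylglycerol lipase, rose from 1.79 ± 0.154 to 371 ± 15.2 CPM, a log2 fold change of 7.70 (SE 0.075) and the largest rise in these 4 lists. AGPAT4, an acyltransferase, rose by 1.69 (SE 0.051), the triglyceride lipase PNPLA2 by 1.29 (SE 0.069) and the droplet protein PLIN3 by 1.28 (SE 0.052). Some genes of lower level, singled out here after their values were seen, fell by more than AGPAT4, PNPLA2 and PLIN3 rose, though by less than the rise of MGLL. They were the lipase LIPE from 5.94 ± 0.659 to 0.506 ± 0.0419 CPM, at -3.55 (SE 0.11), the acyltransferase DGAT2 at -2.68 (SE 0.11), the droplet protein PLIN4 at -1.95 (SE 0.12) and the acyltransferase GPAT3 at -1.83 (SE 0.21). LPIN3, also of lower level, rose from 1.71 ± 0.217 to 7.83 ± 1.86 CPM, at 2.20 (SE 0.22). Of 21 tested genes of fatty acid oxidation 7 rose and 12 fell, with a median of -0.24. HADH and ACADVL, enzymes of the mitochondrial cycle, changed by -1.55 (SE 0.049) and -0.98 (SE 0.063), whereas the lipid-sensing receptors PPARA and PPARD rose by 1.72 (SE 0.065) and 1.46 (SE 0.049). The shares called in these 4 lists, from 88.9% to 91.7% of their tested genes, stand beside 73.8% of all tested genes. Most listed genes held at least 1 CPM, a level at which 88.6% of all genes were called, but some lay below it.

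Directions of members with small changes depend on how libraries are scaled. Knockout libraries carry a broad shift in composition, and with library totals only the median change over all genes shifted by -0.42 (log2), so that 19 members rose and 24 fell and 33% of all calls were higher, against 49.1% with TMM. With upper quartile factors the median moved by -0.20, 22 members rose and 22 fell, and 40.5% of all calls were higher. The median of the mevalonate genes then went from 0.36 to -0.062 with totals only, that of the desaturases from 0.22 to -0.20, that of the elongases from 0.35 to -0.072, and that of the sensing genes from 0.079 to -0.34 (-0.12 with upper quartile factors). The medians of transport genes (0.75) and of the genes of acyl activation and use (1.06) stayed above 0 under these scalings. Those of the squalene branch (-0.081) and of the fatty acid synthesis group (-0.35) stayed below 0. The 14 members that passed the test against a 2-fold change, and ACSL4, kept their direction and an adjusted p under 0.05 in all 14 alternatives tried. The test against a 2-fold change itself, rerun with the 3 other scalings as an alternative chosen after seeing the data, was passed under every scaling by INSIG1, ABCA1, FADS3 and ACSL1 as higher and by ABCG1 and LPL as lower. With library totals only, 4 members passed it as higher and 7 as lower, PMVK, FDPS and FADS1 among the latter.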

How the data were processed

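A673 RNA was measured in 3 parental and 3 knockout libraries. Per the labels' protocols, oligo-dT beads enriched mRNA and the NEBNext Ultra II RNA kit was used. The authors deposited estimated counts per gene, 1 column per library. The submitters' processing notes name kallisto 0.48.0 and hg38. Annotation release, summing to genes and strand settings: not given in the sources used here.

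Estimated counts were rounded and tested across all genes in R 4.3.3 with edgeR 4.0.16 (filterByExpr with minimum count 10 and total 15, TMM, robust quasi-likelihood fit, genotype as the only term, two-sided, Benjamini-Hochberg over 28485 genes, threshold 0.05), and with glmTreat against a log2 fold change of 1. SE is the size of the log2 fold change divided by the square root of F. These steps were tested on simulated data in which few genes changed, as often up as down. That test cannot show how the scaling acts under a broad shift in composition. The biological coefficient of variation was 7.53%, and 3 counts correspond to 0.00752 to 0.0117 CPM, a floor for counting error only. No replicate pair agreed within sampling noise (chi-square per degree of freedom 11.1 to 78.1).

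The members and lists were chosen with earlier results of these data known. Library values are given for the 15 members with a log2 fold change of at least 1 in size and 1 CPM in either genotype, and for SREBF1, SREBF2 and SCAP, others being added where a comparison turns on them. From each of 4 other lists, the 4 called genes with the largest log2 fold change in size were taken among those with a mean of at least 5 CPM over all libraries and groups that did not overlap. 1 gene so taken is not reported here. Gene locations and promoters are from RefSeq (GRCh38.p14), and exon overlaps from GENCODE 29 (GRCh38). A planned comparison of protein sequences was not run. Alternatives were other scalings and filters, DESeq2 1.42.0, limma-voom (limma 3.58.1), a replicate block and leaving out each library. The setting called DESeq2 size factors used RLE factors computed in edgeR, with the edgeR test.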

Additional observations from a re-analysis of the deposited data

How the results depend on the processing

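Of the 47 members, 33 kept direction and call in all 14 alternatives tried, and under limma-voom all 47 did. With library totals only, 9 members changed direction: IDI1 (-0.062), CYP51A1 (-0.42), INSIG2 (-0.054), SREBF2 (-0.42), SCAP (-0.34), SCD5 (-0.20), FADS2 (-0.40), ELOVL2 (-0.027) and ELOVL6 (-0.12). With upper quartile factors CYP51A1 (-0.20), SREBF2 (-0.20), SCAP (-0.12) and FADS2 (-0.18) did so. Members near 0 also changed sign without a filter on low counts (CYP51A1 -0.023, SREBF2 -0.024, FADS2 -0.0047), with the stricter filter of 1 CPM in 3 libraries (CYP51A1 -0.036, SREBF2 -0.036, FADS2 -0.017), with DESeq2 size factors (ACLY 0.025) and with the DESeq2 Wald test (ACLY 0.020). Leaving out 1 library gave values on either side of 0 for CYP51A1 (-0.0087 to 0.054), SREBF2 (-0.0057 to 0.060), ACLY (-0.0099 to 0.051) and ELOVL7 (-0.33 to 0.15), none of which passed in the fit of all libraries. With upper quartile factors SCD5 (0.019, edgeR adjusted p = 0.712) and ELOVL6 (0.10, edgeR adjusted p = 0.0657) no longer passed. Over all genes the stricter filter, which tests fewer genes, gave 6650 higher and 6975 lower calls, against 10328 and 10687. With library totals only, 16 genes of the other sterol list and 16 of the triglyceride and phospholipid list were lower, against 10 in each with TMM. The test against a 2-fold change, rerun under other scalings after seeing the data, was passed by 10 members as higher and 4 as lower with TMM, by 10 and 2 with DESeq2 size factors, by 8 and 5 with upper quartile factors, and by 4 and 7 with library totals only, where 6622 of all genes passed it as lower against 4412. ELOVL7 did not pass the stricter filter, which gives it no value there.

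Replicate numbers did not pair the samples: same-numbered libraries had correlations of -0.21, -0.075 and 0.027 between their deviations over 28485 genes, and no library correlated best with its own number. With a replicate block 24 members rose and 15 fell, SC5D being lost (-0.13, edgeR adjusted p = 0.0549), and over all genes 10041 were higher and 10377 lower. A low level limits ELOVL7, at about 22 counts in its lowest library, and no direction could be detected for it.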
